A study of Rattus norvegicus with 9 samples.

Results

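The genes described here encode the metal-dependent proteases that cut extracellular matrix and cell-surface proteins, together with their inhibitors. They were chosen by symbol alone, as every listed gene named Mmp, Timp, Adam, Adamts or Adamtsl with a number, which gave 63 of the 19919 genes in the table: 18 Mmp, 18 Adam, 19 Adamts, 4 Adamtsl and 4 Timp genes. Of these, 39 reached a value of 1 in at least 3 of the 9 libraries and could be tested, and 24 did not. All values were read as FPKM (fragments normalised to transcript length and to library size), a unit that no source used here states. On that reading, levels may be set against each other within a library.

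Cardiosphere-derived cells (CDCs), a stromal cell population grown out of heart tissue that gathers into spheroids, came from wild-type male Sprague Dawley rats of 4 weeks, from the septum of the left ventricle. The cells of all groups had been released with collagenase and trypsin and expanded as a monolayer before they were seeded. They were then cultured for 3 days on polystyrene (the PS group), on an ultralow attachment surface (the ULA group) or on a hydroxypropyl cellulose ester with liquid-crystal behaviour (the OPC group), with 3 biological replicates each and no other agent named. On PS the cells adhered, and the spheroids sat on a layer of supporting cells, so a PS library may hold both. The cells on ULA stacked in suspension, and those on OPC first attached and then rounded up without such a layer. Whether each replicate had its own animals is not stated, and the p-values therefore reflect how much these cultures varied.

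As background, matrix metalloproteinases (MMPs) are made as inactive proenzymes and are either secreted or held in the membrane. Between them they cut collagens, gelatin, laminin and proteoglycans. The tissue inhibitors of metalloproteinases (TIMPs) bind the active site of MMPs, and Timp3 also inhibits several ADAM and ADAMTS enzymes. ADAMs are membrane proteins, many of which shed the outer part of growth factors and receptors. ADAMTS enzymes are secreted and cut proteoglycans, procollagens and other matrix proteins, while ADAMTS-like (ADAMTSL) proteins have no protease domain. In the heart, these enzymes are best known for remodelling the matrix after infarction. RNA levels do not show how much active enzyme was present.

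In rn6, 7 Mmp genes lie side by side at chr8:5522739-5800342, a span of 277.6 kb that held 7 listed genes, all of them Mmp genes. From the start of Mmp13 at 0.0 kb, the lowest coordinate of Mmp12 lay at 83.9 kb, that of Mmp1b, on the minus strand, at 100.5 kb, Mmp3 at 153.9 kb, Mmp10 at 211.6 kb, Mmp8 at 246.1 kb and Mmp27 at 267.3 kb. Of these neighbours, Mmp13, Mmp3 and Mmp10 were among the genes with the largest differences between substrates, whereas Mmp8, Mmp27 and Mmp1b stayed at or below 0.0959 FPKM in every library. Mmp12 stayed at or below 0.853 FPKM and was not tested. Because members of the cluster that lie close together differed so much in level, the bases just before their starts are shown. The 120 bases upstream of the start of 5 cluster genes, from RefSeq (build GRCr8, whose coordinates differ from those of rn6), all on the plus strand, read 5′ to 3′ as follows, with any match to TGAGTCA or, on the other strand, TGACTCA, the letters bound by the AP-1 family of transcription factors, in capitals.
Mmp13, chr8:12782709-12782828: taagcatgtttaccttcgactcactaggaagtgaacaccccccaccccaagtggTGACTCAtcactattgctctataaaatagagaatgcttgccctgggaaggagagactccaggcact
Mmp12, chr8:12866532-12866651: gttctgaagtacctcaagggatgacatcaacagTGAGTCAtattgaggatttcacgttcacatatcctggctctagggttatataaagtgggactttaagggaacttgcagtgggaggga
Mmp3, chr8:12925161-12925280: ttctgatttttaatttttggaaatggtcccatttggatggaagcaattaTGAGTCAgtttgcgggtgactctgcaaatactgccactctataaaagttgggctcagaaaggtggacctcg
Mmp10, chr8:12974587-12974706: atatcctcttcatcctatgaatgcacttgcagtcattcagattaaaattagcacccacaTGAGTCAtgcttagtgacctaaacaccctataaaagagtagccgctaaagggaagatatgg
Mmp8, chr8:13008770-13008889: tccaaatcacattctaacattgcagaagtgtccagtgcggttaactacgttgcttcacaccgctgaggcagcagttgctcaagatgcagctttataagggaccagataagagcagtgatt

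The match in Mmp13 began 66 bases before the start, that in Mmp3 71, that in Mmp10 61 and that in Mmp12 87. In Mmp8, Mmp27 and Mmp1b the letters were not found in the 250 bases before the start. The same search of all 33469 promoters in the RefSeq table found them in 1354 (4.05%). Of the 63 members, 41 matched 1 promoter, and 5 of these held the letters (12.2%): Mmp13, Mmp10, Mmp12, Mmp3 and Adam19. Mmp13, Mmp3, Mmp10 and Mmp12 are neighbours in the cluster. Mmp12, which also holds the letters, stayed at or below 0.853 FPKM and was not tested. Its means were 0.0235 FPKM on PS, 0.587 on ULA and 0.271 on OPC. Mmp13, Mmp3 and Mmp10 could be tested only through their ULA and OPC levels, so a count of the letters by direction would be no test and is not given. Adam19, which is not in the cluster, was lower than PS on ULA and OPC but was no DEG. A match is a description of the sequence, and whether any factor bound there was not measured.

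Tests used log2(FPKM + 1) and limma with Benjamini-Hochberg adjustment over 12513 genes, and a DEG is a gene whose adjusted p was 0.05 or less and whose |log2FC| was 1 or more. The log2FC values below are on this scale, which shrinks the changes of genes near 0, and the main ones are given with its standard error (SE). Of the 39 members tested, 22 were a DEG in at least 1 of the 3 comparisons. On ULA, 11 members (28.2%) were DEGs higher than on PS, against 8.42% of all genes tested, and 9 (23.1%) were DEGs lower, against 7.39%. On OPC, 12 (30.8%) were higher than on PS, against 6.60% of all genes, and 7 (17.9%) were lower, against 6.11%. Between the OPC and ULA groups, 3 members (7.69%) were DEGs higher in the OPC group, against 1.81% of all genes, and 0 were DEGs lower, against 2.52%, with 0 also at an unadjusted p and the same fold. A set of 7 members had at least 1 library of some group under the filter value of 1, namely Mmp13, Mmp3, Mmp9, Mmp10, Adam8, Adamts3 and Adamts16, and had to differ or be near 1 to be tested. Without these 7, the DEGs against the PS group were 7 higher (21.9%) and 9 lower (28.1%) of 32 on ULA, and 7 higher (21.9%) and 7 lower (21.9%) on OPC. The shares of all genes given above include genes of this kind, and shares without them were not computed. The ULA and OPC comparisons share the PS libraries, so the 11 members higher and 6 lower in both are given as a count only.

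At the adjusted p alone, 36 of 39 members passed in each comparison with the PS group, where 68.9% of all genes passed for ULA and 64.4% for OPC. Between the OPC and ULA groups 29 passed (21 higher and 8 lower in the OPC group), where 54.0% of all genes passed. The median log2FC of the members was 0.44 for ULA vs PS, 0.41 for OPC vs PS and 0.20 for OPC vs ULA, beside 0.06, 0.11 and 0.06 for all genes. The largest single differences were those of Mmp13 upward and Adamtsl3 downward.

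**Figure D1:**
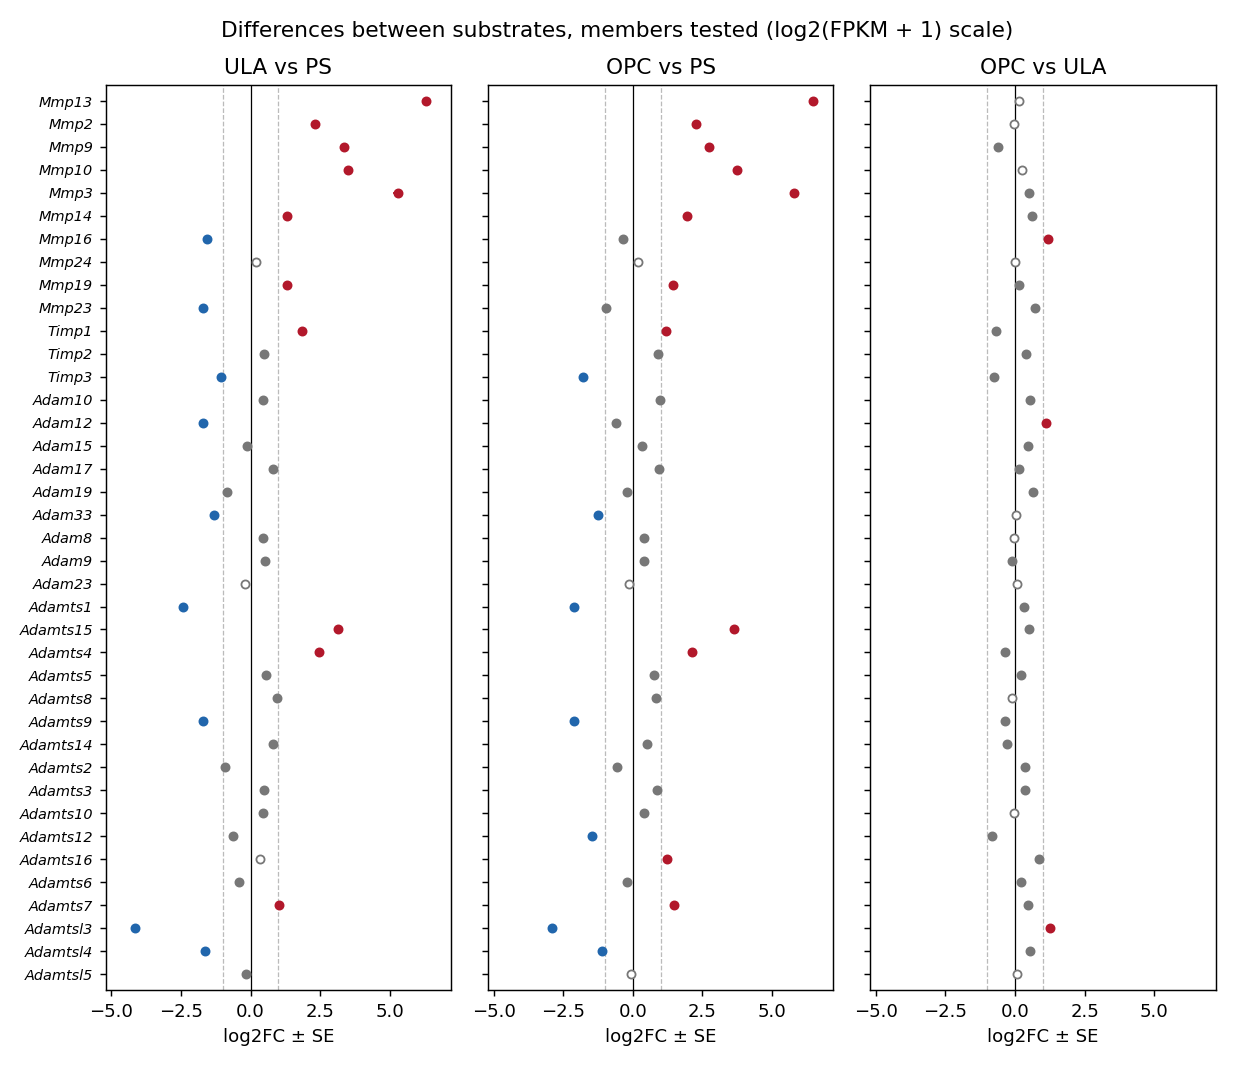
Differences in log2(FPKM + 1) for the 39 members tested in each comparison, with horizontal bars for the SE (mostly hidden by the points). Red points are DEGs higher and blue points DEGs lower in the first group, filled grey points passed the adjusted p but not the fold threshold, open points did not pass, and dashed lines mark a |log2FC| of 1. In both comparisons with the PS group the points span both sides of 0, from -4.15 for Adamtsl3 to 6.46 for Mmp13, whereas in OPC vs ULA they lie closer to 0 and only Mmp16, Adam12 and Adamtsl3 are DEGs.

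The Mmp genes held the largest rises. Of 10 tested, 7 (70.0%) were DEGs higher than PS on both ULA and OPC: Mmp13, Mmp3, Mmp10, Mmp9, Mmp2, Mmp14 and Mmp19. Mmp16 and Mmp23 went the other way, and Mmp24 did not pass in any comparison. Of all genes tested, 8.42% were DEGs higher than PS on ULA and 6.60% on OPC. Mmp13, Mmp3, Mmp10 and Mmp9 had PS libraries under 1 FPKM and could be tested only through their ULA and OPC levels.

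Mmp13, on chromosome 8 from 5522739 to 5533018, encodes collagenase 3, which cuts fibrillar collagen. Its level was 0.760, 0.714 and 1.53 FPKM in the 3 PS libraries, 175, 148 and 144 in the ULA libraries and 195, 174 and 152 in the OPC libraries. Every PS library was thus near 1 and every ULA and OPC library above 140, which put the mean at 156 ± 16.7 FPKM (SD, n = 3) on ULA and 174 ± 21.6 on OPC. The log2FC was 6.31 (SE 0.15, adjusted p = 8.5e-10 from limma) for ULA vs PS and 6.46 (SE 0.15, adjusted p = 1.18e-09) for OPC vs PS. The ULA and OPC libraries overlapped, with a log2FC between them of 0.16 (SE 0.15, adjusted p = 0.415).

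Stromelysin 1 (Mmp3) and stromelysin 2 (Mmp10) degrade proteoglycans, laminin and other matrix proteins and can activate other MMP proenzymes. The level of Mmp3 was 0.918, 0.884 and 1.94 FPKM in the PS libraries, 95.8, 83.5 and 77.7 in the ULA libraries and 136, 126 and 106 in the OPC libraries. The 3 groups did not overlap. Its log2FC was 5.81 (SE 0.17, adjusted p = 3.85e-09) for OPC vs PS. Between the OPC and ULA groups it was 0.51 (SE 0.17, adjusted p = 0.028), a call lost under 8 alternatives, among them the replicate block (adjusted p = 0.051). Mmp10 was at 0.160, 0.0341 and 0.238 FPKM in the PS libraries, 13.6, 11.7 and 10.8 in the ULA libraries and 15.05, 16.7 and 12.0 in the OPC libraries, so that both groups lay far above PS and overlapped each other. Its log2FC was 3.51 (SE 0.13, adjusted p = 1.03e-08) for ULA vs PS and 3.76 (SE 0.13, adjusted p = 1e-08) for OPC vs PS. Mmp3 and Mmp10 are close paralogs and may share reads.

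The gelatinases are Mmp2 and Mmp9. Mmp2, on chromosome 19 from 15542765 to 15570611, was the most abundant protease of all 63 genes, at 451, 433 and 442 FPKM in the PS libraries, 2287, 2094 and 2150.0 in the ULA libraries and 2215, 2078 and 2094 in the OPC libraries. The mean rose 4.92-fold in the ULA group (log2FC 2.30, SE 0.04, adjusted p = 2.42e-10) and 4.82-fold in the OPC group (adjusted p = 3.82e-10). These 2 groups overlapped, with a log2FC between them of -0.03 (SE 0.04, adjusted p = 0.559). Mmp9, on chromosome 3, was at 0.195, 0.295 and 0.236 FPKM in the PS libraries, 13.7, 11.04 and 10.6 in the ULA libraries and 7.47, 7.08 and 7.18 in the OPC libraries. It was the only Mmp gene that passed as lower on OPC than on ULA (log2FC -0.63, SE 0.09, adjusted p = 3.82e-04). Its ULA level was thus 1.63-fold that of the OPC group, and both exceeded every PS library.

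**Figure D2:**
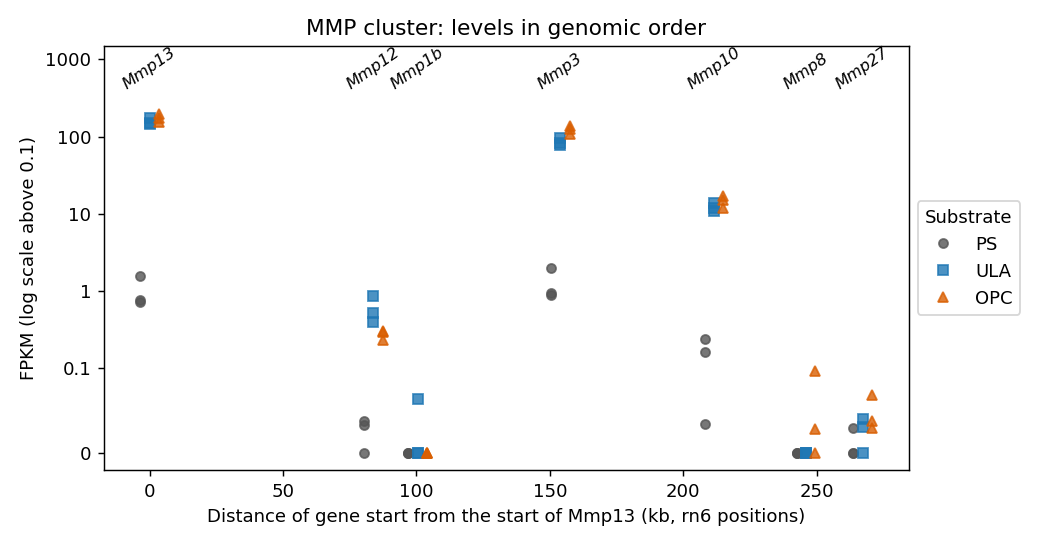
Levels of the 7 Mmp genes of the rn6 cluster in genomic order, with FPKM on a log scale above 0.1 and a linear scale below it, and 1 point per library (groups shifted sideways for legibility). The horizontal axis is the distance of each gene's lowest coordinate from that of Mmp13 in kb. Mmp13, Mmp3 and Mmp10 stand at 10.8 to 195 FPKM in every ULA and OPC library and at or below 1.94 in every PS library. Mmp12 stays at or below 0.853 in every library, and Mmp8, Mmp1b and Mmp27 stay near 0.

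Mmp14, the membrane protease that activates the Mmp2 proenzyme with the help of Timp2 and also cuts collagen itself, was the most abundant membrane-type MMP. It lies on chromosome 15 from 33074441 to 33083655. Its level was 337, 338 and 351 FPKM in the PS libraries, 896, 830.0 and 839 in the ULA libraries and 1359, 1313 and 1259 in the OPC libraries. The 3 groups were thus fully separated in the order PS, ULA, OPC. The log2FC was 1.32 (SE 0.04, adjusted p = 4.14e-09) for ULA vs PS, 1.93 (adjusted p = 8.08e-10) for OPC vs PS and 0.62 (adjusted p = 2.82e-06) for OPC vs ULA.

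Mmp16, another membrane-type MMP, was highest on PS, at 19.2, 19.3 and 19.7 FPKM, against 6.20, 5.68 and 5.85 in the ULA libraries and 15.1, 13.9 and 15.7 in the OPC libraries. It was lower than PS on ULA (log2FC -1.56, SE 0.05, adjusted p = 7.37e-09) and on OPC (log2FC -0.36, adjusted p = 2.7e-04) and was the only Mmp gene that was a DEG between the OPC and ULA groups (log2FC 1.20, SE 0.05, adjusted p = 2.23e-07). Of the other membrane-type genes, Mmp24 was at 2.23 to 2.96 FPKM in all 9 libraries, and Mmp15 and Mmp17 stayed at or below 0.790 FPKM and were not tested.

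Mmp23, whose product is anchored in the membrane and released by cleavage, was at 35.4, 35.2 and 36.4 FPKM in the PS libraries, 10.9, 9.10 and 11.2 in the ULA libraries and 16.8, 17.3 and 19.0 in the OPC libraries. Its groups were separated in the same order as those of Mmp16, with the ULA group lowest (log2FC -1.69 for ULA vs PS, SE 0.07, adjusted p = 3.61e-08). The OPC group was 0.97 below PS on the log2 scale (log2FC -0.97, adjusted p = 2.34e-06), just inside the fold threshold. Mmp19, a secreted protease of basement membrane and other matrix proteins, was at 50.2, 49.7 and 49.0 FPKM in the PS libraries, 129, 119 and 127 in the ULA libraries and 138, 142 and 131 in the OPC libraries. Both were above PS (log2FC 1.32 and 1.44, SE 0.04, adjusted p = 3.79e-09 and 3.4e-09). The small difference between them (log2FC 0.13, adjusted p = 0.0258) was lost under 6 alternatives, upper-quartile rescaling among them (adjusted p = 0.291).

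**Figure D3:**
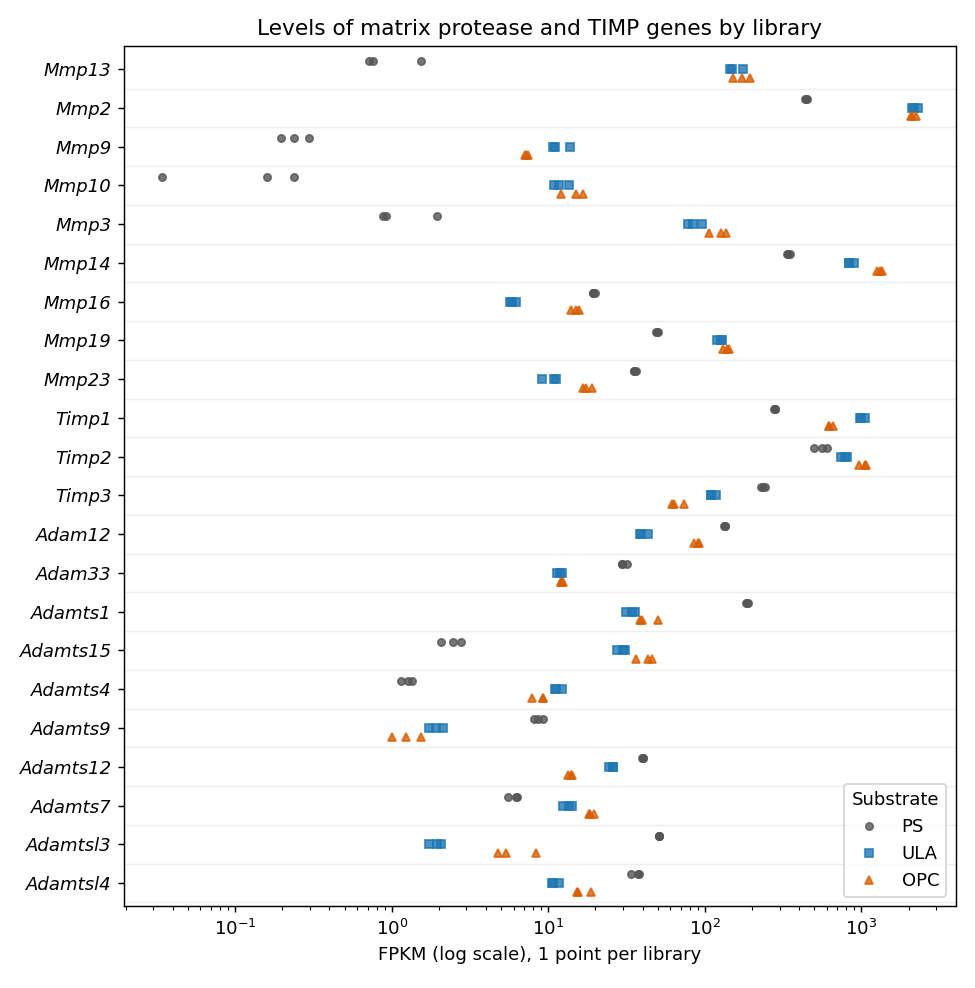
Levels in FPKM (log scale) of 22 tested members, with 1 point per library and the 3 substrates drawn as circles (PS), squares (ULA) and triangles (OPC). These are the tested Timp genes and every member that was a DEG and had a group mean of at least 5 FPKM. Within a group the 3 points mostly lie on top of each other, and the distance between PS and the other groups is widest for Mmp13, Mmp10, Mmp3 and Mmp9 among the genes lower on PS and, for ULA, for Adamtsl3 among those higher on PS.

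The 3 expressed Timp genes each showed a different order of the groups. Each of the 4 Timp genes overlaps another gene in rn6: Timp1, Timp3 and Timp4 lie in the opposite direction to the synapsin genes Syn1, Syn3 and Syn2, and Timp2 overlaps Cep295nl in the same direction. No source used here says whether reads were counted by strand, and such neighbours may share reads. Timp1, a secreted inhibitor of most MMPs, is on the X chromosome, and its level was 276, 279 and 279.7 FPKM in the PS libraries, 1049, 974 and 997 in the ULA libraries and 623, 622 and 658 in the OPC libraries. It was highest on ULA and intermediate on OPC, with no overlap. The log2FC was 1.85 (SE 0.04, adjusted p = 3.35e-10) for ULA vs PS, 1.18 (adjusted p = 5.58e-09) for OPC vs PS and -0.67 (adjusted p = 8e-07) for OPC vs ULA.

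Timp2, on chromosome 10, was at 557, 600.1 and 499 FPKM in the PS libraries, 806, 744 and 784 in the ULA libraries and 969, 1077 and 1059 in the OPC libraries. It was highest on OPC, the same order as Mmp14 (log2FC 0.91, SE 0.07, adjusted p = 2.17e-06 for OPC vs PS, and 0.41, adjusted p = 7.86e-04 for OPC vs ULA). Timp3, which binds to the matrix, was highest on PS, at 240.5, 227 and 235 FPKM, against 118, 109 and 109 in the ULA libraries and 63.9, 62.0 and 73.8 in the OPC libraries. Its log2FC was -1.80 for OPC vs PS (SE 0.06, adjusted p = 1.19e-08) and -1.06 for ULA vs PS (adjusted p = 3.19e-07), and its level was lower on OPC than on ULA (log2FC -0.75, adjusted p = 1.09e-05). Timp4 was not tested: it was listed at 0 in 5 of 9 libraries, at 0.0341 in 1 PS library, 0.144 and 0.138 in 2 ULA libraries and 0.0398 in 1 OPC library.

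The summed levels put these side by side. The 12 secreted Mmp genes together came to 494.6 ± 9.56 FPKM (SD, n = 3) on PS, 2569 ± 130 on ULA and 2585 ± 108 on OPC. The 4 Timp genes came to 1065 ± 46.4, 1897 ± 73.4 and 1736 ± 70.3 FPKM. The ratio of the sums was 0.469, 0.438 and 0.489 in the PS libraries, 1.38, 1.35 and 1.33 in the ULA libraries and 1.63, 1.44 and 1.40 in the OPC libraries. It was thus below 1 in every PS library and above 1 in every ULA and OPC library, and the lowest OPC value lay just above the highest ULA value. Mmp2 alone made up 89.4%, 84.8% and 82.4% of the Mmp sum in the 3 groups. Without it the ratio was 0.0494 ± 0.00288, 0.206 ± 0.0103 and 0.263 ± 0.0344, in the same order.

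**Figure D4:**
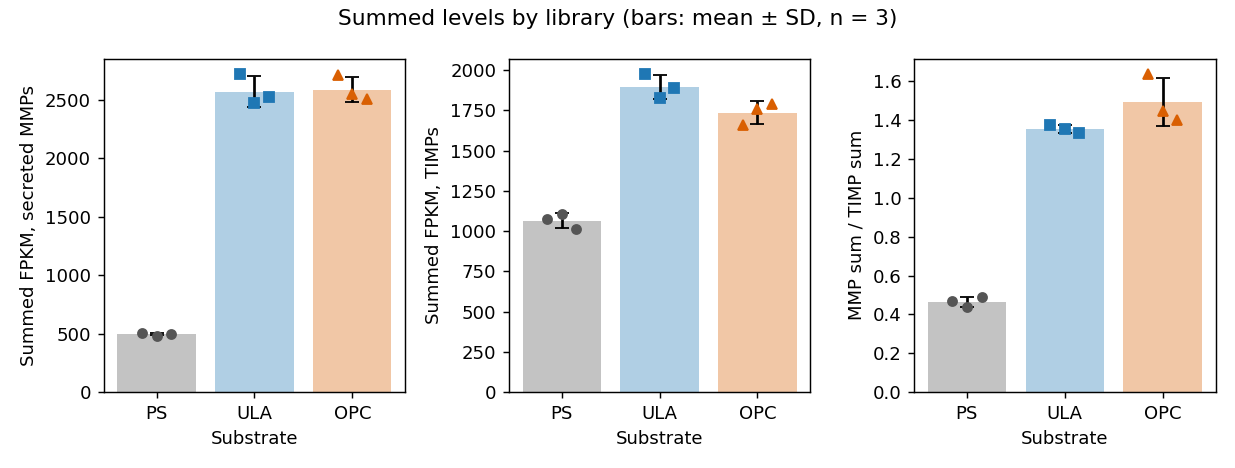
Summed FPKM of the 12 secreted Mmp genes (left), of the 4 Timp genes (middle) and the ratio of the 2 sums (right), with bars for the mean, error bars for the SD over 3 libraries and 1 point per library. The Mmp sum is 2569 on ULA, 2585 on OPC and 494.6 on PS, and the ratio lies between 0.438 and 0.489 on PS and between 1.33 and 1.63 on the other substrates.

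The makeup of the Timp sum also differed. Timp1 held 26.2 ± 1.22% of it on PS, 53.1 ± 0.306% on ULA and 36.6 ± 1.17% on OPC. Timp2 held the largest share on PS (51.8 ± 2.51%) and on OPC (59.6 ± 1.39%). Timp3 went from 22.03 ± 1.39% on PS to 5.91 ± 0.108% on ULA and 3.83 ± 0.301% on OPC. The ratio of the levels of Mmp14 and Timp2, which act together on the Mmp2 proenzyme, was 0.624 ± 0.0711, 1.10 ± 0.0260 and 1.27 ± 0.115. These sums and ratios are descriptions, with no test.

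Of the Adam genes, 9 of 18 were tested. Against the PS group, 0 were DEGs higher (limma, with 4 passing the adjusted p as higher on ULA and 5 on OPC), 2 were DEGs lower on ULA and 1 was on OPC. Of all genes tested, 8.42% were DEGs higher than PS on ULA and 6.60% on OPC, and 7.39% and 6.11% were DEGs lower. The adjusted p alone was passed, in either direction, by 68.9% of all genes for ULA and 64.4% for OPC. Whether the 9 Adam genes differ from these shares was not tested. Adam12, a shedding protease of growth factors and their binding proteins that is known from activated fibroblasts and myogenic cells, was the most abundant on PS and OPC, at 135, 133 and 135 FPKM in the PS libraries, 43.0, 38.4 and 39.1 in the ULA libraries and 90.0, 85.3 and 91.8 in the OPC libraries. The OPC libraries lay between those of PS and ULA without overlap. Against PS its log2FC was -1.72 on ULA (SE 0.05, adjusted p = 1.52e-09) and -0.59 on OPC (adjusted p = 2.78e-06), and OPC exceeded ULA by a log2FC of 1.13 (adjusted p = 1.27e-07). Adam33, expressed in mesenchymal cells, was at 32.0, 29.7 and 29.6 FPKM on PS, 12.2, 11.3 and 11.8 on ULA and 12.4, 12.0 and 12.0 on OPC. The PS libraries were above all others (log2FC -1.26, SE 0.05, adjusted p = 1.65e-08 for OPC vs PS), and ULA and OPC overlapped (log2FC 0.04, SE 0.05, adjusted p = 0.505).

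Adam10 and Adam17 are sheddases, known above all for cutting Notch (Adam10) and for releasing tumour necrosis factor and ligands of the epidermal growth factor receptor (Adam17). Adam17 rose from 23.6 ± 1.32 FPKM on PS to 42.1 ± 1.36 on ULA (log2FC 0.81, SE 0.05, adjusted p = 2.26e-07) and 46.9 ± 1.11 on OPC (log2FC 0.96, adjusted p = 8.97e-08). Adam10 rose from 18.8 ± 1.13 FPKM to 26.1 ± 1.54 and 38.1 ± 0.909, with a log2FC of 0.53 (SE 0.06, adjusted p = 4.2e-05) for OPC vs ULA. Adam9 rose from 31.9 ± 0.586 FPKM on PS to 46.1 ± 2.08 on ULA and 42.9 ± 0.436 on OPC. Adam19 was lowest on ULA, at 18.6 ± 0.303 FPKM against 34.5 ± 0.600 on PS and 29.4 ± 1.84 on OPC. Adam15 was the only member called in opposite directions against PS. Its level was 26.1, 26.9 and 26.1 FPKM on PS, 23.5, 23.9 and 23.9 on ULA (log2FC -0.14, SE 0.04, adjusted p = 0.00827) and 34.5, 33.7 and 31.9 on OPC (log2FC 0.33, SE 0.04, adjusted p = 4.89e-05). Adam8 was near 1 FPKM (0.440 to 1.28), and Adam23 stayed at 2.48 to 3.82 FPKM and passed in no comparison.

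Of the Adamts genes, 14 of 19 were tested. The members that cleave aggrecan and versican, the large proteoglycans, split by direction. Adamts1, on chromosome 11 from 25342126 to 25350974, was the most abundant Adamts gene on PS, at 183, 189 and 186 FPKM, against 34.2, 31.3 and 35.8 in the ULA libraries and 39.7, 38.4 and 50.4 in the OPC libraries. Every PS library was at least 3 times the highest of the others, with a log2FC of -2.43 (SE 0.09, adjusted p = 1.29e-08) for ULA vs PS and -2.11 (adjusted p = 4.86e-08) for OPC vs PS. Adamts15 went the other way, from 2.46, 2.07 and 2.78 FPKM on PS to 30.7, 29.8 and 27.3 on ULA and 45.8, 43.2 and 36.5 on OPC. Its mean was 12.0-fold higher on ULA (log2FC 3.14, SE 0.10, adjusted p = 3.84e-09) and 17.2-fold higher on OPC (log2FC 3.64, adjusted p = 2.6e-09), and OPC exceeded ULA (log2FC 0.50, adjusted p = 0.00218).

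Adamts4, an aggrecanase, was at 1.34, 1.14 and 1.27 FPKM on PS, 12.2, 10.99 and 11.2 on ULA and 9.25, 9.27 and 7.90 on OPC. Both ULA and OPC lay far above PS (log2FC 2.47 and 2.12, SE 0.08, adjusted p = 3.89e-09 and 1.6e-08), with ULA above OPC. Like Adamts1, Adamts9 was highest on PS, but it was lowest on OPC, where Adamts1 was lowest on ULA. Adamts9 was at 9.19, 8.53 and 8.13 FPKM on PS, 1.92, 1.72 and 2.12 on ULA and 1.01, 1.23 and 1.55 on OPC. It fell by 1.72 on the log2 scale on ULA (SE 0.10, adjusted p = 3.38e-07) and by 2.09 on OPC (adjusted p = 1.1e-07). Adamts5, the other main aggrecanase, rose from 14.4 ± 0.140 FPKM to 21.9 ± 0.521 on ULA and 25.4 ± 0.925 on OPC, and Adamts8 from 9.26 ± 0.390 to 18.8 ± 1.75 and 17.2 ± 0.463, each without reaching the fold threshold.

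Adamts7 and Adamts12, which both cut cartilage oligomeric matrix protein, moved in opposite directions. Adamts7 was at 6.33, 5.53 and 6.24 FPKM on PS, 14.1, 13.5 and 12.4 on ULA and 18.4, 19.5 and 18.1 on OPC (log2FC 1.48, SE 0.06, adjusted p = 4.69e-08 for OPC vs PS). Its log2FC of 1.03 for ULA vs PS (adjusted p = 4.46e-07) was close to the fold threshold and fell under it without the second PS library or the first ULA library. Adamts12 was at 40.3, 39.8 and 40.4 FPKM on PS, 25.9, 25.7 and 24.5 on ULA and 13.9, 13.3 and 14.2 on OPC. It fell by 1.48 on OPC (SE 0.04, adjusted p = 2.43e-09) and was lower there than on ULA (log2FC -0.83, adjusted p = 2.94e-07).

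The procollagen N-propeptidases are Adamts2, Adamts3 and Adamts14. Adamts2 was the most abundant of them, at 86.5 ± 0.811 FPKM on PS, 45.6 ± 0.412 on ULA and 58.4 ± 1.83 on OPC (log2FC -0.91, SE 0.03, adjusted p = 6.85e-09 for ULA vs PS). Adamts14 (at most 2.80 FPKM) and Adamts3 (at most 1.42) were higher on both ULA and OPC than on PS. Adamts10, linked to fibrillin microfibrils, was at 32.4 ± 1.11, 44.2 ± 0.447 and 43.0 ± 2.40 FPKM, and Adamts6 at 20.0 ± 1.02, 14.7 ± 1.42 and 17.1 ± 0.509. Adamts16 was a DEG at a low level, with 0.261, 0.285 and 0.388 FPKM on PS, 0.667, 0.686 and 0.669 on ULA and 1.85, 2.80 and 1.63 on OPC (log2FC 1.22, SE 0.14, adjusted p = 5.28e-05 for OPC vs PS).

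The Adamtsl genes gave the largest fall. Adamtsl3, on chromosome 1 from 144239020 to 144561247, was at 50.6, 50.6 and 50.8 FPKM on PS, 1.73, 2.06 and 1.95 on ULA and 5.35, 4.78 and 8.31 on OPC. The mean was 26.5-fold lower on ULA (log2FC -4.15, SE 0.15, adjusted p = 9.08e-09) and 8.24-fold lower on OPC (log2FC -2.89, adjusted p = 1.47e-07). The groups did not overlap, and OPC was 3.21-fold above ULA (log2FC 1.26, adjusted p = 8.9e-05). Adamtsl4, which binds fibrillin, was at 37.9, 34.0 and 37.3 FPKM on PS, 10.5, 11.7 and 10.7 on ULA and 15.4, 15.2 and 18.7 on OPC. Its log2FC was -1.64 (SE 0.08, adjusted p = 8.46e-08) for ULA vs PS and -1.11 (adjusted p = 1.8e-06) for OPC vs PS. Adamtsl5 differed little, from 31.3 to 38.0 FPKM over all libraries.

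By the order of the 3 means, 13 of the 39 tested members were lowest on PS and highest on OPC, and 10 lowest on PS and highest on ULA. Another 12 were highest on PS and lowest on ULA, and 3 (Timp3, Adamts9 and Adamts12) highest on PS and lowest on OPC. Adam15 alone was lowest on ULA and highest on OPC. The shares of all genes in these orders were not computed, so the counts describe the members only. The 24 members not tested were Mmp1b, Mmp8, Mmp12, Mmp15, Mmp17, Mmp21, Mmp27, Mmp28, Timp4, Adam2, Adam4, Adam6, Adam11, Adam18, Adam22, Adam28, Adam30, Adam32, Adamts13, Adamts17, Adamts18, Adamts19, Adamts20 and Adamtsl2, none of which exceeded 0.910 FPKM in any library. Of the tested genes, Adam17, Adamts3, Adamts6, Adamts16 and Adamtsl5 also overlap another listed gene in rn6, as the Timp genes do. Neighbours in the orders of the means did not always pass a test, as the values of Mmp13, Mmp2 and Adam33 show.

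Other genes that act with these proteases were read from lists. In the list counts below, rose and fell stand for the adjusted p alone, and the DEGs are given after them. The adjusted p was passed by 68.9% of all genes for ULA vs PS and 64.4% for OPC vs PS. DEGs higher than PS were 8.42% of all genes on ULA and 6.60% on OPC, and DEGs lower were 7.39% and 6.11%. Of 7 tested proprotein convertases and genes of plasminogen activation, 5 rose and 2 fell in both comparisons with PS, with 3 DEGs higher and 2 lower on ULA and 1 and 1 on OPC. Basigin (Bsg), a membrane glycoprotein that induces MMPs in neighbouring cells, was at 295 ± 4.32 FPKM on PS, 951 ± 33.8 on ULA and 420.3 ± 2.20 on OPC. Plat, the tissue plasminogen activator, was at 52.7 ± 1.96, 143 ± 6.18 and 109 ± 4.93 FPKM. The convertase Pcsk5 was at 3.32, 13.5 and 5.77 FPKM and Pcsk7 at 22.7, 8.34 and 12.6.

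Of 6 tested inhibitors and clearance receptors other than TIMPs, 5 rose on ULA and 4 rose on OPC against PS, 2 of them DEGs in each. Serpine2, which inhibits thrombin and plasminogen activators, rose from 53.5 FPKM to 188 and 289. Tfpi2, an inhibitor of plasmin and other serine proteases, was at 4.84, 19.0 and 7.81 FPKM, and Lrp1, an endocytic receptor that clears proteases with their inhibitors, at 207, 358 and 392.

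Of 7 tested partners of Adam10 and Adam17, 1 rose and 3 fell in each comparison with PS, a smaller share than that of all genes, and only Tspan17 was a DEG against PS. Tspan5, a tetraspanin that helps Adam10 mature, rose on ULA and fell on OPC (14.7, 27.3 and 11.4 FPKM), and Tspan17, of the same family, fell on both (9.20, 3.73 and 2.70). Tspan14 was at 13.2, 10.8 and 13.4 FPKM, and Frmd8, which stabilises the complex of Adam17 and its rhomboid partner, at 9.46, 10.5 and 14.6. Of 9 tested ligands and receptors shed by Adam17, 3 rose and 4 fell on ULA, and 6 rose and 2 fell on OPC, against PS, with 2 DEGs higher and 3 lower on ULA and 2 and 2 on OPC. The growth factors Tgfa (56.7, 5.14 and 8.46 FPKM) and Hbegf (51.1, 7.78 and 7.26) fell, and the chemokine Cx3cl1 (6.79, 47.8 and 82.9) and the receptor Tnfrsf1b (3.35, 21.1 and 15.3) rose.

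Among the targets of the Adamts enzymes, 2 of 4 lecticans were tested. Versican (Vcan) rose from 30.9 ± 1.49 FPKM on PS to 229 ± 18.1 on ULA and 375 ± 15.4 on OPC, and aggrecan (Acan) fell from 10.7 to 1.85 and 5.95. Of 3 tested procollagen proteases and enhancers of the astacin group, Tll1 fell from 25.5 FPKM to 3.27 and 5.98 and Bmp1 rose from 38.9 to 47.6 and 65.3. Pcolce, an enhancer of Bmp1, was at 463, 293.5 and 432 FPKM, lower than PS on ULA (log2FC -0.66, adjusted p = 4.31e-07) and with no call on OPC (adjusted p = 0.0564). Of 7 tested cathepsins, which are lysosomal or secreted proteases of other classes, 6 rose on ULA and 6 rose and 1 fell on OPC against PS, with 6 DEGs higher on ULA and 5 on OPC. Examples are Ctsk (69.9, 244 and 202 FPKM), Ctsd (359, 883 and 920.5), Ctsl (286, 765.5 and 702) and Ctsh (89.3, 186 and 204).

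Markers of other cells were read in the same libraries. The fibroblast and mesenchymal list (5 of 5 genes tested) summed to 6173 to 7504 FPKM over all libraries, nearly all of it Col1a1 and Col3a1. Its other members moved in both directions: Thy1 was at 137, 20.9 and 29.3 FPKM on PS, ULA and OPC, Dcn at 9.38, 108 and 42.1, and Pdgfra at 16.7, 68.5 and 68.9, each a DEG in both comparisons with PS. The smooth muscle and myofibroblast list (4 of 4 tested) summed to 4336 to 4415 FPKM on PS, 74.5 to 79.5 on ULA and 139 to 244 on OPC. Nearly all of this sum was Acta2 and Tagln. All 4 genes were far higher on PS and were DEGs in both comparisons with it. Between ULA and OPC they did not all keep the order of the sum, since Cnn1 was lowest on OPC (22.7, 0.403 and 0.125 FPKM on PS, ULA and OPC). The order of groups of the sum was that of 12 of the 39 tested members, Adamtsl3 and Adamts1 among them. The share of all genes with that order was not computed, so this count does not link the members to these markers. Of 7 macrophage and monocyte markers 6 matched, and these summed to 20.5 to 22.7 FPKM on PS, 74.7 to 79.0 on ULA and 44.0 to 49.6 on OPC. This order of groups was that of 10 of the 39 tested members, Mmp9 and Timp1 among them, again without a share of all genes to set it against. The sum came mostly from Cd68 (2.76 to 39.9 FPKM over the libraries) and Cd14 (17.1 to 37.5). Lyz2 followed them at a low level (0.220, 1.15 and 0.456 FPKM, adjusted p = 2.31e-04 for ULA vs PS and 0.0984 for OPC vs PS), whereas Ptprc (at most 0.0442), Adgre1 (at most 0.187) and Csf1r (at most 0.491) were near 0 in every library. The part of the macrophage and of the myofibroblast markers in the results was not tested. Sums were at most 0.759 FPKM for 3 of 4 neutrophil markers, 0.152 for 2 of 4 lymphocyte markers, 0.672 for 2 of 4 endothelial markers (Pecam1 and Cdh5 were not analysed here) and 1.43 for 4 of 4 cardiomyocyte markers. In bulk samples, fewer cells of a type and less RNA per cell cannot be told apart. The FPKM of a library summed to 444736 to 460732, and depths relative to the first PS library ranged from 0.869 to 1.17.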

How the data were processed

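The authors aligned RNA-Seq reads of 9 libraries to rn6. HISAT2, featureCounts and DESeq2 are named in the paper's methods, whereas HISAT2 2.1 with StringTie 1.3.0 appear in the submitters' processing notes. Which of these made the deposited table, and its unit, no source used here says. Its values were read as FPKM, since they are not whole, the steps between low values differ by gene, and library sums (444736 to 460732) differ from those of CPM or TPM. The deposited FPKM keep no absolute depth, hence counting errors are unknown and a 0 may be an undetected gene.

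The 12513 genes that reached 1 FPKM in 3 or more libraries were fitted as log2(FPKM + 1), all groups together, by limma 3.58.1 under R 4.3.3 (eBayes with its trend option, residual df of 6, 2-sided, Benjamini-Hochberg). The fit was tested on simulated data. The members, lists and rules were chosen with earlier results of these data known. Values per library are given for every Timp gene and every member that was a DEG and had a group mean of at least 5 FPKM, and for up to 4 genes of each list the means are given. The result of 1 list gene is not reported here. Adam15 and Adamts16 were named with all values after these were seen. Promoters came from RefSeq (GRCr8): 41 members matched once, 2 with several promoters were left out and 20 had no match.

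Alternatives were a pseudocount of 0.1, no filter, a filter of 5 FPKM, upper-quartile rescaling, no trend, only the 2 groups compared, an unadjusted p, the replicate number as a block, and leaving out each library.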

Additional observations from a re-analysis of the deposited data

Results flagged for a closer look

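Adam15, a membrane protease of the Adam family, was lower than PS in the ULA group and higher than PS in the OPC group, and the difference between the OPC and ULA groups was itself tested (log2FC 0.47, SE 0.04, adjusted p = 8.88e-06 from limma). The OPC libraries were above every PS library and the ULA libraries below every PS library, in 3 of 3 each. Whether these calls hold under the alternatives below was not examined.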

How the results depend on the processing

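The 6 counts of member DEGs stayed within 1.5 times their values under all 17 alternatives run for each. With a pseudocount of 0.1 they were 4 higher for OPC vs ULA (Adamts16 added), 14 higher for ULA vs PS (Adamts14, Adamts3 and Adamts8 added), and 14 higher (Adam10 and Adamts3 added) and 8 lower (Mmp23 added) for OPC vs PS. The filter of 5 FPKM left 11 higher for OPC vs PS, without Adamts16, and upper-quartile rescaling gave 8 lower, with Mmp23. Leaving out 1 library lost Adamts7 or added Adam10 or Mmp23 and gave 10 to 11 higher and 9 to 9 lower for ULA vs PS, 12 to 13 higher and 7 to 8 lower for OPC vs PS, and 3 to 3 higher and 0 to 0 lower for OPC vs ULA. The ratio of the Mmp and Timp sums ranged from 0.454 to 0.479 (PS), 1.34 to 1.36 (ULA) and 1.42 to 1.54 (OPC) when 1 library was left out, and without Mmp2 it was 0.0494, 0.206 and 0.263.

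Among members given with their values, changes of sign or of side of the adjusted p were all in OPC vs ULA (15 calls lost, 1 gained, 2 signs turned, and 1104 other values the same). Mmp2 turned to 0.0043 without the first ULA library (-0.0607 to 0.0043 when 1 library was left out) and Adam33 to -0.026 with upper-quartile rescaling, both far from significance. Mmp3 lost its call with a pseudocount of 0.1 (adjusted p = 0.108), with no filter (0.0575), with upper-quartile rescaling (0.0519), and without ULA replicate 2 or 3 or OPC replicate 1 or 2 (0.0686 to 0.0908). Mmp19 lost it with rescaling (0.291), without a trend (0.0564), with only the 2 groups fitted (0.0537), and without the second ULA or the first or second OPC library (0.0734 to 0.0930). Adamts1 lost it with rescaling (0.0512), and Mmp10 gained one without the third OPC library (0.0245). The cause of these changes was not tested. Rescaling moved the median log2FC of all genes for OPC vs ULA from 0.06 to -0.0025.

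Libraries with the same replicate number did not deviate together (r from -0.039 to 0.054). Whether they shared animals or a day of culture cannot be read from this. With the replicate block the counts were 3 and 0 for OPC vs ULA, 11 and 9 for ULA vs PS and 12 and 7 for OPC vs PS, the same genes as without it, and only the OPC vs ULA call of Mmp3 changed (adjusted p = 0.051).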

Other observations

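The 24 members that were not tested stayed at or below 0.910 FPKM, and 17 of them were listed at 0 in at least 1 library. In most of them the groups overlapped: 7 of 24 had no overlap for ULA vs PS, 7 for OPC vs ULA and 9 for OPC vs PS, beside 22.6%, 15.2% and 18.3% of all 7406 untested genes. A few of those without overlap in at least 1 comparison are given here. Mmp12, the macrophage metalloelastase of the chromosome 8 cluster, was at 0.0381, 0.0324 and 0 FPKM on PS, 0.853, 0.395 and 0.513 on ULA and 0.294, 0.291 and 0.227 on OPC, the same order of groups as for Mmp9. Adamts17, linked to fibrillin microfibrils, was at 0.243, 0.276 and 0.302 FPKM on PS, 0.744, 0.910 and 0.638 on ULA and 0.261, 0.420 and 0.362 on OPC. Mmp15, a membrane-type MMP, was at 0.102, 0.261 and 0.169 FPKM on PS, 0.0762, 0.157 and 0.306 on ULA and 0.540, 0.520 and 0.744 on OPC. Adamts20 was at 0.177, 0.130 and 0.117 FPKM on PS and at most 0.0513 on the other substrates. Without a count behind these values, their counting error is unknown, and these genes were chosen after their values were seen.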
